A study of Homo sapiens with 18 samples.

Results

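The 5 genes described here encode subunits of gamma-secretase: PSEN2, NCSTN, APH1A, APH1B and PSENEN. They were taken from the 57905 Ensembl genes of the count tables by matching each gene ID to its symbol, and all 5 were found. All 5 passed the filter on low counts in each of the 3 RNA sequencing experiments. Of these, APH1B was the member whose level differed between ABCC1-overexpressing and empty vector control cells past the test, and it did so in 1 experiment, RNA1, where it fell and where 19.7% of all genes tested were called lower.

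Gamma-secretase is a protease embedded in the membrane that cuts other membrane proteins within the lipid bilayer, usually after another protease (a sheddase) has removed most of the part outside the cell. PSEN2 encodes a presenilin, the subunit that holds the catalytic site. NCSTN encodes nicastrin, which faces the outside of the cell and takes part in the selection of substrates. APH1A and APH1B encode alternative forms of the scaffold subunit, and PSENEN encodes PEN-2, which is needed for the maturation of presenilin. In neurons the complex is best known for the last cut that releases amyloid beta from the amyloid precursor protein (APP), and it also releases the signalling domain of Notch receptors.

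The study asked how overexpression of ABCC1, an export pump of the ATP-binding cassette family, changes APP processing and transcription in BE(2)-m17 cells, a human neuroblastoma line. Every cell line carried a codon-optimized APP transgene from the vector pSBbi-Hyg-APP, controls included. The Puro control line also carried the empty vector pSBbi-Pur, and the ABCC1 line carried a codon-optimized ABCC1(WT) transgene in the same vector, both inserted by a transposon and kept by antibiotic selection. In each of 3 experiments (RNA1, RNA2, RNA3) there were 3 libraries of each line, 18 in all, from weekly platings of 14000000 cells lysed on day 4. Each experiment thus compares 1 transfected line with 1 control line, and the p-values measure the spread between platings of those lines. Per the study's text, the repeat experiments used cryopreserved cells and newly transfected cells, in that order, while the labels only number them. RNA1 was made with another library kit and instrument than RNA2 and RNA3, so levels were compared within an experiment.

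Assigned counts per library ran from 27433393 to 57937653 in RNA1, from 19577853 to 30996228 in RNA2 and from 8866994 to 13332413 in RNA3. The ABCC1 transgene was in every library as labelled, at 51035 to 594404 counts where ABCC1 was labelled and 0 to 15 where Puro was. The endogenous ABCC1 gene, counted apart, had a log2 fold change of -0.01, 0.28 and 0.32 in RNA1, RNA2 and RNA3, none past the test. All 9 neuroblastoma marker genes examined were at 1 CPM (counts per 1e6 assigned counts, after TMM normalization) or more in all groups. In RNA1, where APH1B fell, 7 of these 9 were called too, MYCN and TH higher and PHOX2A, GATA3, ISL1, DBH and CHGA lower, beside 37.6% of all genes tested. In RNA3 3 of 9 were called, TH higher and PHOX2A and DBH lower, beside 2.80% of all genes, and in RNA2 0 of 9 were called by edgeR (1.70% of all genes) and 3 by DESeq2 (2556 of 34091 genes), with 5 at an unadjusted p under 0.05. The part of these shifts in the values of the members was not tested. Of 7 markers of blood, endothelial, liver, connective tissue and glial cells, 0 reached 1 CPM in the Puro libraries of RNA1 and 1 (COL1A1) in its ABCC1 libraries, and all 7 reached it in RNA2 and RNA3. In the latter experiments their summed level was 39.6 to 54.2 CPM in Puro against 14.2 to 29.6 CPM in ABCC1 libraries (RNA2), and 110.5 to 131 CPM against 82.1 to 100.3 CPM (RNA3). The same held for 372 olfactory receptor genes, which neuroblastoma cells are not known to use and whose mean level served as a measure of background reads per kb of exon. This background was 0.00486 ± 0.00040 CPM per kb in Puro and 0.00404 ± 0.00029 in ABCC1 libraries of RNA1 (SD, n = 3). It was 0.576 ± 0.088 against 0.302 ± 0.144 in RNA2 and 1.57 ± 0.095 against 1.24 ± 0.16 in RNA3. In RNA2 and RNA3 every ABCC1 library had a lower background than every Puro library. The fits below with the background as a covariate therefore cannot tell line and background apart. ABCC1 replicate 3 of RNA1 stood apart from the other libraries of its group, with a chi-square per degree of freedom of 21.5 and 16.1 against them where those 2 libraries gave 1.49 against each other. Without it, 46.2% of 16942 genes were called in RNA1, and the log2FC of PSEN2, NCSTN and APH1A was -0.09, 0.04 and 0.07, none called. The values of APH1B and PSENEN without it are given with their results. In bulk RNA, fewer cells of a type and less RNA per cell cannot be told apart.

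Since the counting did not use strand, the neighbours of a gene matter for its value. On GRCh37, PSEN2 (ENSG00000143801) lies on the plus strand of chromosome 1 from 227057885 to 227083806 and APH1B (ENSG00000138613) on the plus strand of chromosome 15 from 63568217 to 63601325. Neither shares an exon base with another annotated gene. NCSTN (ENSG00000162736, chromosome 1, 160313062 to 160328742, plus strand) shares 129 of its 4175 exon bases with COPA on the opposite strand. APH1A (ENSG00000117362, chromosome 1, 150237804 to 150241980, minus strand) shares 490 of 3468 with C1orf54, also on the opposite strand. PSENEN (ENSG00000205155, chromosome 19, 36236015 to 36237911, plus strand) shares 617 of 1336, or 46.2%, the most of the members. Its overlaps are 332 bases with U2AF1L4 and 173 with ENSG00000267120, both on the opposite strand, and 285 with ENSG00000188223 on its own strand. Read pairs that touch exons of more than 1 gene are not counted by default, so the values of these genes rest mainly on the remaining bases.

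The 250 bases before the start site were read from RefSeq on GRCh38.p14, where 4 of the 5 members matched by symbol. Those of PSEN2, whose 2 lines did not overlap in level in RNA1 and RNA3, and of NCSTN, APH1A and PSENEN, whose exons overlap a gene read in the other direction, are shown 5′ to 3′ on the strand of the gene. The windows are chr1:226870366-226870615 for PSEN2, chr1:160343133-160343382 for NCSTN and chr19:35745401-35745650 for PSENEN, on the plus strand, and chr1:150269017-150269266 for APH1A, on the minus strand. Capitals mark matches to the motifs searched on both strands.
PSEN2: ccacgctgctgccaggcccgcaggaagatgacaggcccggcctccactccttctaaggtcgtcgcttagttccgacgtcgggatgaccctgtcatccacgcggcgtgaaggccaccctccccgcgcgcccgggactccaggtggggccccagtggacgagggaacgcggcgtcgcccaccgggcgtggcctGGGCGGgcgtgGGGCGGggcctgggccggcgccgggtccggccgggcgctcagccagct
NCSTN: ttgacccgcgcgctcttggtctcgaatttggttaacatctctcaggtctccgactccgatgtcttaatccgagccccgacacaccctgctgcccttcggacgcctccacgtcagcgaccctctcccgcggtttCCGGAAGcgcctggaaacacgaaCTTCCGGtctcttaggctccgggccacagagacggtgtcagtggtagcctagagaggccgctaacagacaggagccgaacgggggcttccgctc
APH1A: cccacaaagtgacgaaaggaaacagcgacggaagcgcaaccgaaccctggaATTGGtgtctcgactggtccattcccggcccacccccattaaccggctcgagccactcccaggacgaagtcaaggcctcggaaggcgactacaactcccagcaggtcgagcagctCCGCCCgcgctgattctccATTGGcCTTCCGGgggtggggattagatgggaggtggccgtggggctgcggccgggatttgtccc
PSENEN: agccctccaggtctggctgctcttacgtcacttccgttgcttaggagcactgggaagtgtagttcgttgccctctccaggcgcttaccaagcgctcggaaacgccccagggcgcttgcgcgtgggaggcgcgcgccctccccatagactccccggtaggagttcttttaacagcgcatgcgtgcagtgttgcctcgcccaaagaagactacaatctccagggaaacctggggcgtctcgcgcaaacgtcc
The motifs were CCAAT, GC box (GGGCGG), ETS core (CCGGAAG) and TATA box (TATAAA), each with its reverse complement, and no pair of them overlapped in the windows shown. PSEN2 held the GC box at 2 places, as 42.6% of 35116 promoters of the same length held at least 1. NCSTN held the ETS core at 2 places, once on each strand, a motif present in 8.52% of promoters. APH1A held CCAAT at 2 places, a GC box and an ETS core, all on the reverse strand, and CCAAT was in 32.0% of promoters. PSENEN held none of the 4, and none of the matched members held the TATA box, which was in 10.7% of promoters. The windows of PSEN2, APH1A, NCSTN and PSENEN had a GC content of 75.2%, 63.2%, 61.6% and 61.2%, against a median of 58% over all promoters. These are matches of letters and were not tested as sites.

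By level per kb of exon, the members stood in the order APH1A, NCSTN, PSEN2, PSENEN and APH1B in both lines of all 3 experiments. In the Puro cells of RNA1 the levels were 50.3 ± 1.4 CPM per kb for APH1A, 44.6 ± 1.9 for NCSTN, 12.8 ± 0.15 for PSEN2, 7.62 ± 0.59 for PSENEN and 1.10 ± 0.094 for APH1B (SD, n = 3). APH1A, the more abundant scaffold gene, was above 95.3% of the 16995 genes tested in this experiment, and APH1B was above 30.7%. In the Puro cells of RNA2 the same order ran 21.5 ± 2.1, 9.22 ± 0.63, 7.84 ± 0.84, 5.82 ± 1.7 and 0.978 ± 0.13 CPM per kb. In the Puro cells of RNA3 it ran 19.1 ± 1.4, 14.1 ± 2.4, 10.4 ± 1.1, 4.71 ± 0.92 and 1.59 ± 0.20 CPM per kb. Neighbours in the order had separate ranges of libraries except PSEN2 and PSENEN in the Puro cells of RNA2, and NCSTN and PSEN2 in the ABCC1 cells of RNA3 (13.96 ± 1.7 against 13.5 ± 0.99 CPM per kb). The place of PSENEN depended on the exon length used: per kb of exon that no other annotated gene shares, it moved from place 4 to place 3 or higher in 4 of the 6 groups.

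**Figure D1:**
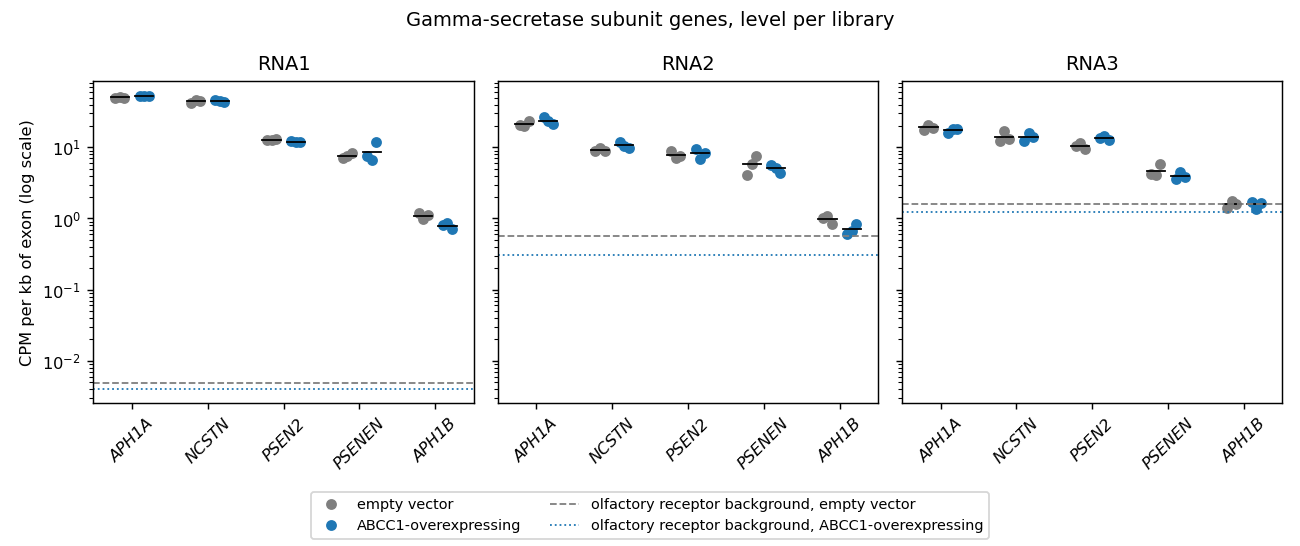
Level of the 5 subunit genes in each library, in CPM per kb of exon on a log axis, for empty vector (grey) and ABCC1-overexpressing (blue) cells in RNA1, RNA2 and RNA3, with black bars at the mean of 3 libraries. Dashed (empty vector) and dotted (ABCC1) lines mark the mean background of 372 olfactory receptor genes, which lies far below all members in RNA1 and at the level of APH1B in RNA3.

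For each member, the ABCC1 and Puro libraries of an experiment were compared by edgeR's quasi-likelihood test, with p adjusted over all genes tested. In RNA1, 1 of 5 members (APH1B) was called at an adjusted p of at most 0.05, where 37.6% of the 16995 genes tested were called, 17.9% higher and 19.7% lower. In RNA2, 0 of 5 were called by edgeR, by DESeq2 and at an unadjusted p under 0.05, where 1.70% of 34091 genes were called, 1.25% higher and 0.458% lower. In RNA3, 0 of 5 were called by edgeR and 0 of the 3 that DESeq2 gave an adjusted p (PSEN2, NCSTN and APH1A), with 1 (PSEN2) at an unadjusted p under 0.05, where 2.80% of 36509 genes were called, 2.03% higher and 0.767% lower. The median log2 fold change (log2FC) over the members was 0.01 in RNA1, 0.07 in RNA2 and -0.01 in RNA3, beside medians over all genes tested of 0.01, -0.19 and -0.09. The median over all genes in RNA2 was -0.08 with the size factors of DESeq2, a shift of the zero point that moves every member up together. The CPM ranges of the lines did not overlap for 3 of 5 members in RNA1 (PSEN2, APH1A and APH1B), where this held for 50.4% of the genes tested. It held for 0 of 5 in RNA2 (29.8% of genes) and for 1 of 5, PSEN2, in RNA3 (19.5% of genes).

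**Figure D2:**
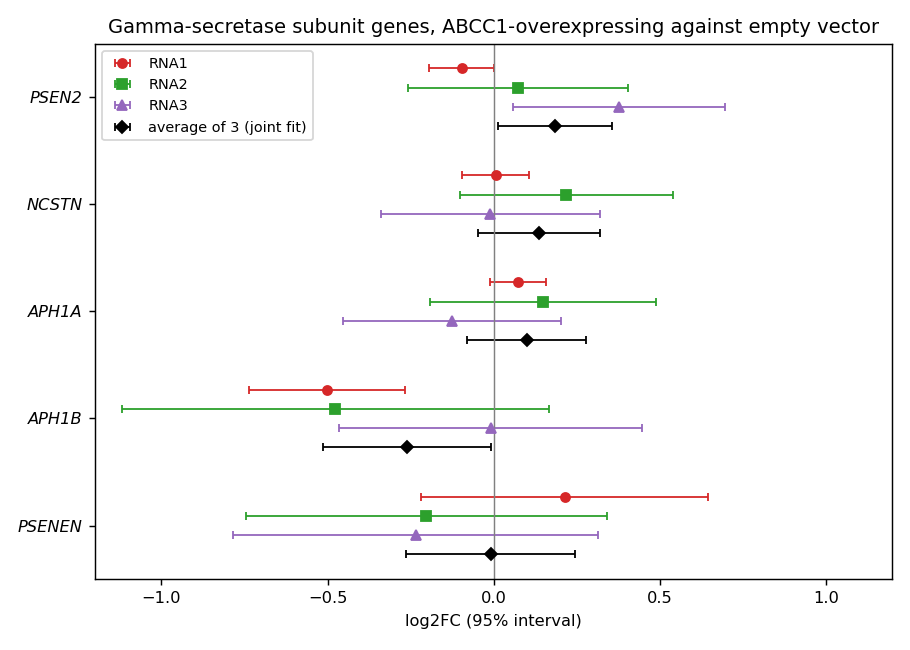
Log2FC of each member in RNA1, RNA2 and RNA3 and averaged over them in a joint fit, ABCC1-overexpressing against empty vector cells, with 95% intervals. The interval of APH1B in RNA1 (-0.74 to -0.27) lies below 0 and that of PSEN2 in RNA3 (0.06 to 0.70) above it before adjustment, while those of NCSTN, APH1A and PSENEN include 0 in every experiment.

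PSEN2, the catalytic subunit, stood slightly lower with ABCC1 in RNA1 and higher in RNA3, and neither difference passed the test. In RNA1 it measured 47.9, 48.0 and 48.9 CPM in the Puro libraries and 45.6, 44.6 and 45.03 CPM in the ABCC1 libraries. All 3 ABCC1 libraries were below all 3 Puro libraries by a small margin, with a log2FC of -0.10 (SE 0.044, adjusted p = 0.108 by edgeR). In RNA2 it measured 32.9, 26.7 and 28.8 CPM in Puro and 35.9, 25.9 and 31.0 CPM in ABCC1 libraries, and the lines overlapped throughout (log2FC 0.07, 95% interval -0.26 to 0.40). In RNA3 it measured 39.2, 43.1 and 35.1 CPM in Puro and 50.8, 54.6 and 47.2 CPM in ABCC1 libraries. Here every ABCC1 library was above every Puro library, and the fold was 1.30 (95% interval 1.04 to 1.62). The log2FC was 0.38 (SE 0.16), which had an unadjusted p under 0.05 but did not pass after adjustment over all genes (adjusted p = 0.219 by edgeR). This depended on a single library: without Puro replicate 2, which had the highest Puro value, the log2FC was 0.46 and the adjusted p was 0.0324. In that fit the number of genes called in RNA3 rose from 1021 to 2762. Background reads came to 12.8% to 17.6% of the PSEN2 level in the Puro libraries of RNA3 and to 8.07% to 10.5% in the ABCC1 libraries. Their part in the difference was not tested. A fit with the background as a covariate, which cannot separate it from line, gave a log2FC of 0.29 (adjusted p = 0.552).

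NCSTN, the nicastrin gene, had nearly the same level in both lines of RNA1, and its lines overlapped in RNA2 and RNA3. In RNA1 it measured 177.8, 193.9 and 186.8 CPM in Puro and 191.1, 190.4 and 179.1 CPM in ABCC1 libraries, and the log2FC was 0.01 with a 95% interval of -0.09 to 0.11 (adjusted p = 0.934). That interval leaves a change of at most 6.36% down or 7.65% up. In RNA2 it measured 37.2, 41.5 and 36.8 CPM in Puro and 50.1, 43.9 and 40.3 CPM in ABCC1 libraries. The lowest ABCC1 library lay below the highest Puro library, and the log2FC of 0.22 (SE 0.16) did not pass (adjusted p = 0.419). In RNA3 it measured 51.4, 69.9 and 54.7 CPM in Puro and 51.4, 65.9 and 57.6 CPM in ABCC1 libraries, with a log2FC of -0.01 (95% interval -0.34 to 0.32). With the background as a covariate its log2FC was -0.01 in RNA2 and -0.34 in RNA3, the latter at an unadjusted p under 0.05 and an adjusted p of 0.422. COPA, a coat protein gene whose exons overlap those of NCSTN at the start, fell in RNA1 (log2FC -0.21, SE 0.040, adjusted p = 0.00209), and its log2FC was 0.15 in RNA2 and -0.18 in RNA3, neither past the test. COPA had 134.3% to 162.1% of the level of NCSTN per kb in RNA1, 197.2% to 278.3% in RNA2 and 195.1% to 254.1% in RNA3.

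APH1A, the main scaffold gene here, was marginally higher with ABCC1 in RNA1 and overlapped between the lines in the repeats. In RNA1 it measured 170.6, 180 and 173 CPM in Puro and 184.9, 181.4 and 184.4 CPM in ABCC1 libraries. The lines did not overlap, but the log2FC was only 0.07 (95% interval -0.01 to 0.16) and did not pass (adjusted p = 0.157). In RNA2 it measured 72.0, 68.5 and 82.6 CPM in Puro and 92.1, 81.4 and 73.8 CPM in ABCC1 libraries, with a log2FC of 0.15 (SE 0.16, adjusted p = 0.617). In RNA3 it measured 61.3, 71.0 and 65.9 CPM in Puro and 55.2, 62.6 and 63.7 CPM in ABCC1 libraries, with a log2FC of -0.13 (SE 0.16, adjusted p = 0.778). The libraries overlapped in both repeats. The sign differed between them. With the background as a covariate, which cannot be separated from line here, the log2FC was -0.05 in RNA2 and -0.32 in RNA3, neither called. C1orf54, which shares exon bases with APH1A on the other strand, was at 0.526% to 0.712% of the APH1A level per kb in RNA1, at 6.50% to 13.5% in RNA2 and at 19.0% to 34.0% in RNA3. Its log2FC was -0.66 in RNA3 (SE 0.26, adjusted p = 0.176), and its part in the value of APH1A was not tested.

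APH1B, the scarcer scaffold gene, fell with ABCC1 in RNA1. It had 282, 149 and 194 counts in Puro against 248, 152 and 225 with ABCC1, which is 6.48, 5.47 and 6.15 CPM against 4.39, 4.71 and 3.88 CPM. All 3 ABCC1 libraries were below all 3 Puro libraries, with group levels of 6.04 ± 0.52 and 4.33 ± 0.42 CPM (SD, n = 3). The log2FC was -0.50 (SE 0.11, adjusted p = 0.00378 by edgeR), a fold of 0.707 with a 95% interval of 0.601 to 0.831. Without ABCC1 replicate 3, the library that stood apart, the log2FC was -0.43 (adjusted p = 0.00211). Background reads made up 0.401% to 0.564% of the level of APH1B in the libraries of RNA1.

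In RNA2 the estimate was of like size but much less precise. APH1B measured 5.62, 5.92 and 4.58 CPM in Puro and 3.32, 3.67 and 4.58 CPM in ABCC1 libraries. The highest ABCC1 library just reached the lowest Puro library, and the log2FC of -0.48 (SE 0.31, 95% interval -1.12 to 0.17) did not pass (adjusted p = 0.376). Background reads moved in the same direction: they came to 44.9% to 70.2% of the APH1B level in Puro and to 23.8% to 51.1% in ABCC1 libraries. With that background as a covariate the log2FC was -0.22 (SE 0.39). In RNA3 APH1B measured 7.64, 9.80 and 8.76 CPM in Puro and 9.49, 7.39 and 9.16 CPM in ABCC1 libraries, and the lines overlapped fully (log2FC -0.01, 95% interval -0.46 to 0.45). Here the background per kb equalled 82.2% to 115.9% of the APH1B level in Puro and 67.7% to 87.3% in ABCC1 libraries. The level of APH1B in RNA3 was thus of the size of the background, whose part in the comparison was not tested. The fit with the background as a covariate, which cannot separate it from line, gave a log2FC of -0.02.

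**Figure D3:**
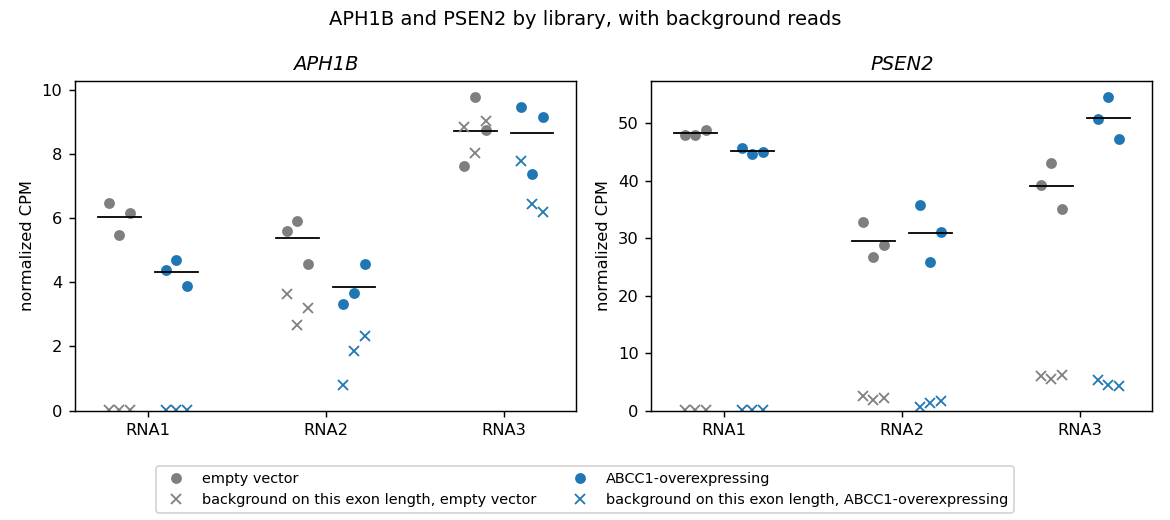
CPM of APH1B (left) and PSEN2 (right) in each library of RNA1, RNA2 and RNA3 for empty vector (grey) and ABCC1-overexpressing (blue) cells, with black bars at the mean of 3 libraries. Crosses give the CPM that the olfactory receptor background of the same library would put on the exon length of the gene: near 0 in RNA1, and up to 115.9% of the APH1B level in RNA3.

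The split between the scaffold genes was examined as the share of APH1A in the sum of APH1A and APH1B, both per kb. In RNA1 it was 97.7%, 98.1% and 97.8% in Puro and 98.5%, 98.4% and 98.7% in ABCC1 libraries, without overlap. In RNA2 it was 95.3%, 94.8% and 96.6% in Puro and 97.8%, 97.2% and 96.2% in ABCC1 libraries. In RNA3 it was 92.7%, 91.99% and 92.3% in Puro and 90.2%, 93.1% and 91.7% in ABCC1 libraries. APH1A was therefore by far the larger part in every library, and the share was higher with ABCC1 in RNA1 and RNA2 by mean, but not in RNA3. Averaged over the experiments the ABCC1 share was 0.502 percentage points above the Puro share (exact two-sided permutation test within experiments, p = 0.247, 8000 arrangements). RNA1 alone gave a difference of 0.674 points and an exact permutation p of 0.1, the smallest that 3 against 3 libraries allow, and 0.595 points without ABCC1 replicate 3. RNA2 alone gave 1.49 points (exact permutation p = 0.2) and RNA3 alone -0.661 points (exact permutation p = 0.6). Without ABCC1 replicate 1 of RNA3 the average difference was 0.742 points (exact permutation p = 0.0383), so the outcome of the test depended on that library. The background per kb was highest in RNA3, where the share of APH1A was lowest, and its part in the share was not tested.

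**Figure D4:**
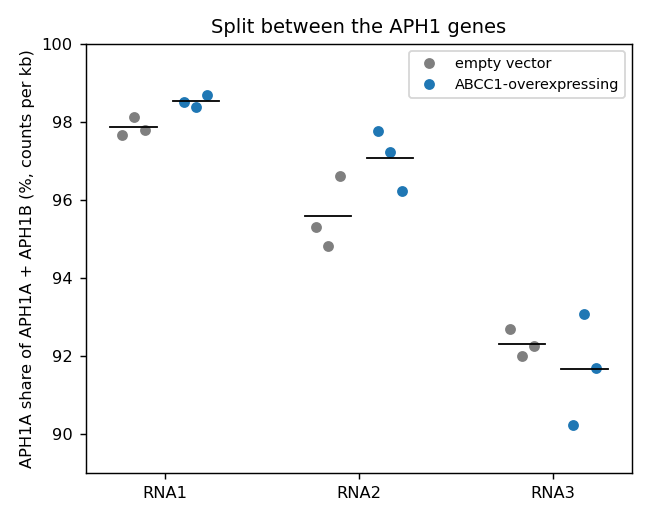
Share of APH1A in the sum of APH1A and APH1B (counts per kb of exon, in percent; the axis starts at 89) in each library of RNA1, RNA2 and RNA3, with black bars at the mean of 3 libraries. The ABCC1-overexpressing libraries (blue) lie above the empty vector libraries (grey) in RNA1 and overlap them in RNA2 and RNA3.

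PSENEN, the PEN-2 gene, did not differ between the lines past the test in any experiment, and 1 library set its value in RNA1. It had 412, 273 and 348 counts in the Puro libraries of RNA1 against 563, 291 and 920 with ABCC1, which is 9.47, 10.0 and 11.04 CPM against 9.96, 9.02 and 15.9 CPM. On the scale of log2(CPM + 0.5), ABCC1 replicate 3 was 1.64-fold above the mean of the other ABCC1 libraries. These others fell within or just below the Puro range. The log2FC was 0.21 (SE 0.19, adjusted p = 0.419) with this library and -0.08 (adjusted p = 0.460) without it. In the same library U2AF1L4, the splicing factor gene whose exons overlap PSENEN on the other strand, was 1.41-fold above the other ABCC1 libraries on that scale. It measured 2.49, 2.29 and 3.57 CPM in ABCC1 replicates 1, 2 and 3, and the offset of 0.5 lowers the ratio of so low a gene. The other members were not raised there, with ratios on that scale of 0.998 for PSEN2, 0.939 for NCSTN, 1.01 for APH1A and 0.868 for APH1B. Of 13681 genes at 1 CPM or more, 155 were more than 0.5 higher on the log2 scale in that library and 44 were lower by as much.

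In RNA2 PSENEN measured 5.39, 7.90 and 10.0 CPM in Puro and 7.49, 6.96 and 5.81 CPM in ABCC1 libraries. The Puro libraries spread widely around the ABCC1 ones, with a log2FC of -0.20 (95% interval -0.74 to 0.34). In RNA3 it measured 5.73, 5.44 and 7.71 CPM in Puro and 4.79, 6.01 and 5.20 CPM in ABCC1 libraries, on 56 to 74 counts a library, with a log2FC of -0.24 (95% interval -0.78 to 0.31). As folds these intervals run from 0.597 to 1.27 and from 0.581 to 1.24, and changes of PSENEN within them are compatible with these libraries. Background reads came to 26.1% to 39.6% of its level in RNA3 and to 2.56% to 16.3% in RNA2.

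The 18 libraries were also fitted together, for the average effect over the experiments and a test of whether the effect differed between them. The p-values of this fit, too, measure the spread between platings. The study's text calls only 1 of the repeats newly transfected, so the experiments need not be separate transfections. For the average, 0 of 5 members were called by edgeR, where 12.9% of 46225 genes were called (9.39% higher, 3.55% lower), and 2 of 5 had an unadjusted p under 0.05. These were PSEN2 (log2FC 0.18, SE 0.086, adjusted p = 0.186) and APH1B (-0.26, SE 0.13, adjusted p = 0.211). The share of all genes at this unadjusted threshold is not given here. With DESeq2, 1 of 5 was called, APH1B at a log2FC of -0.35 (adjusted p = 0.0142). DESeq2 called 6300 of 46225 genes for the average, 3645 higher and 2655 lower. The average was 0.14 for NCSTN, 0.10 for APH1A and -0.01 for PSENEN. These averages moved together with the scaling: the median over all genes was -0.08 here, -0.17 with RLE size factors and -0.23 with DESeq2. With DESeq2 the averages of PSEN2, NCSTN and APH1A were 0.09, 0.04 and 0.00, and with only genes of at least 10 counts in every library they were -0.001, -0.05 and -0.09, none called. No direction of the average is therefore given for these 3 members. The average of APH1B was negative in all 22 alternatives, but these refit the same 18 libraries and hold no background covariate. Its log2FC was -0.50 in RNA1 and -0.01 in RNA3, where its level was of the size of the background. The effect was not shown to differ between the experiments for any member. In the interaction test by edgeR, 0 of 5 were called, with 0 at an unadjusted p under 0.05, where 1.19% of genes were called. The lowest adjusted p of the members was that of PSEN2 (0.665), whose log2FC in RNA3 was 0.45 above that in RNA1 in this fit, and DESeq2 gave it an adjusted p of 0.329.

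The genes around the complex were examined in lists set beside the members. Of 14 genes for regulators and binding partners, 12 passed the filter in RNA1, of which 2 rose, 4 fell and 6 did not pass the test, where 37.6% of all genes tested were called (17.9% higher, 19.7% lower). DESeq2 called 3 of the 12 (ARRB1, HERPUD1 and HIF1A) and did not call GSAP, UBQLN1 or PLD1. The median log2FC of the list was -0.05, beside 0.01 over all genes. ARRB1, a beta-arrestin gene, rose by a log2FC of 0.45 (adjusted p = 0.000108 by edgeR), and HERPUD1, a gene of protein degradation at the endoplasmic reticulum, fell by 0.44 on the log2 scale (adjusted p = 2.95e-05). The others called by edgeR were GSAP (higher), the gene of gamma-secretase activating protein, and UBQLN1, HIF1A and PLD1 (lower). GSAP and PLD1 were under 1 CPM in both lines. In RNA2, 0 of 14 were called by edgeR, with 2 at an unadjusted p under 0.05, and 0 of the 13 to which DESeq2 gave an adjusted p, beside 1.70% of all genes called by edgeR. In RNA3 4 of 14 had an unadjusted p under 0.05, and 1, CTNND2, was called (beside 2.80% of all genes) and was lower (log2FC -0.66, adjusted p = 0.0377), with a Puro level of 2.40 CPM per kb against a background of 1.57. Of 4 sheddase genes that passed the filter in RNA1, ADAM9 and ADAM10 fell (log2FC -0.21 and -0.13, adjusted p = 0.00677 and 0.0282) and 2 did not pass. DESeq2 called 1 of the 4, ADAM9, and gave ADAM10 an adjusted p of 0.0583. Sheddases called by edgeR and by DESeq2 in RNA2 and RNA3 numbered 0 of 5 each, with 2 and 1 at an unadjusted p under 0.05. BACE1, the beta-secretase gene, had a log2FC of 0.02, 0.41 and 0.03 in RNA1, RNA2 and RNA3, none past the test (adjusted p = 0.749, 0.172 and 0.961). Of the signal peptide peptidase family, relatives of the presenilins, 2 of 4 fell in RNA1 (SPPL2A and SPPL2B, log2FC -0.38 and -0.34), and 0 of 5 were called in RNA2 and in RNA3 by edgeR, with 2 and 0 at an unadjusted p under 0.05. DESeq2 gave an adjusted p to 4 of the 5 in each and called 0.

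Of 27 substrate genes that passed the filter in RNA1, 8 rose, 9 fell and 10 did not pass the test, with a median log2FC of -0.07, where 17.9% of all genes tested were called higher and 19.7% lower. In RNA2, 1 of 29 rose and 1 fell by edgeR, beside 1.70% of all genes called, and DESeq2 called 9 of 29, beside 2556 of 34091 genes. In RNA3 1 of 29 rose, beside 2.80% of all genes called, and DESeq2 called 3 of the 25 it gave an adjusted p, beside 1561 of 36509 genes. The list medians there were -0.07 and -0.20, beside -0.19 and -0.09 over all genes. ERBB4, a growth factor receptor gene, fell from 8.65 ± 0.58 to 1.39 ± 0.061 CPM in RNA1 (log2FC -2.64, adjusted p = 3.23e-08) and from 11.3 ± 0.80 to 5.94 ± 0.14 CPM in RNA2 (-0.93, adjusted p = 0.0326). Its log2FC in RNA3 was -0.56 (adjusted p = 0.0715), and the difference between experiments passed the interaction test (adjusted p = 8.22e-07). Per kb, ERBB4 in Puro was at 0.665 CPM in RNA1 against a background of 0.00486, at 0.870 in RNA2 against 0.576 and at 1.55 in RNA3 against 1.57. The background itself was lower with ABCC1 in RNA2 and RNA3, and its part in the RNA2 and RNA3 values of ERBB4 and in their difference from RNA1 was not tested. EFNB1, an ephrin ligand gene, rose from 15.9 ± 0.40 to 30.5 ± 0.96 CPM in RNA1 (log2FC 0.94) and from 8.58 ± 0.18 to 16.5 ± 3.4 CPM in RNA3 (0.95, adjusted p = 0.00145), and its log2FC in RNA2 was 0.82 (adjusted p = 0.0625). NOTCH2 rose in RNA1 (log2FC 0.59) and in RNA2 (0.75, adjusted p = 0.0196), and its log2FC was 0.15 in RNA3 (adjusted p = 0.712). The row of the APP gene, apart from the transgene sequence, had a log2FC of -0.13 in RNA1 (adjusted p = 0.0207), 0.13 in RNA2 and -0.22 in RNA3, the latter 2 not past the test. Its Puro level was 223.2 CPM in RNA1, 2595 in RNA2 and 3646 in RNA3, and whether the latter hold reads of the transgene was not tested. NOTCH1 was not called in any experiment, with a log2FC of -0.12, -0.73 and -0.31 in RNA1, RNA2 and RNA3. Its Puro level was 1.42 CPM in RNA1. Per kb it was 0.740 CPM in RNA2 against a background of 0.576, and 2.27 in RNA3 against 1.57.

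Of the Notch target genes, HEY1, a transcriptional repressor gene, rose in all 3 experiments. It went from 24.6 ± 0.46 to 54.3 ± 1.1 CPM in RNA1, from 6.61 ± 0.73 to 12.2 ± 1.2 CPM in RNA2 and from 13.2 ± 1.2 to 29.7 ± 1.5 CPM in RNA3 (SD, n = 3). The log2FC was 1.14, 0.88 and 1.17 (adjusted p = 5.16e-08, 0.0374 and 6.89e-07 by edgeR). HES1, another Notch target, fell in RNA1 (log2FC -0.36, adjusted p = 0.0231) and in RNA3 (-0.99, adjusted p = 0.0119), and its log2FC in RNA2 was 0.23 (adjusted p = 0.762). Of this list, 1 was called higher and 1 lower of 4 tested in RNA1, 1 higher of 7 in RNA2, and 1 higher and 1 lower of 7 in RNA3, beside 37.6%, 1.70% and 2.80% of all genes called. In RNA2 DESeq2 called 2, HEY1 and HEY2, beside 2556 of 34091 genes. HEY2 was lower (log2FC -1.84 by edgeR, adjusted p = 0.0490 by DESeq2), at a Puro level of 1.08 CPM per kb against a background of 0.576. In RNA3 DESeq2 gave 2 of these 7 genes an adjusted p and called 1, HEY1, while HES1 was among those without one. The Puro level of HES1 in RNA3 was 4.77 CPM per kb against a background of 1.57 that was also lower with ABCC1, and its part in the fall of HES1 was not tested.

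Without ABCC1 replicate 3 of RNA1, the genes of the regulator, substrate, sheddase, signal peptide peptidase and Notch target lists called in RNA1 were all called again in the same direction, as were the 7 neuroblastoma markers and COPA. ERBB4 then had a log2FC of -2.63, HEY1 of 1.13, HES1 of -0.36 and ADAM10 of -0.11. Also called without it were TMED10, APLP1, DLL1 and HM13 (lower) and ADAM17 (higher). Of the markers of other cell types, COL1A1 was called higher with all libraries (adjusted p = 0.0301 by edgeR) and not without that library (adjusted p = 0.0759).

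**Figure D5:**
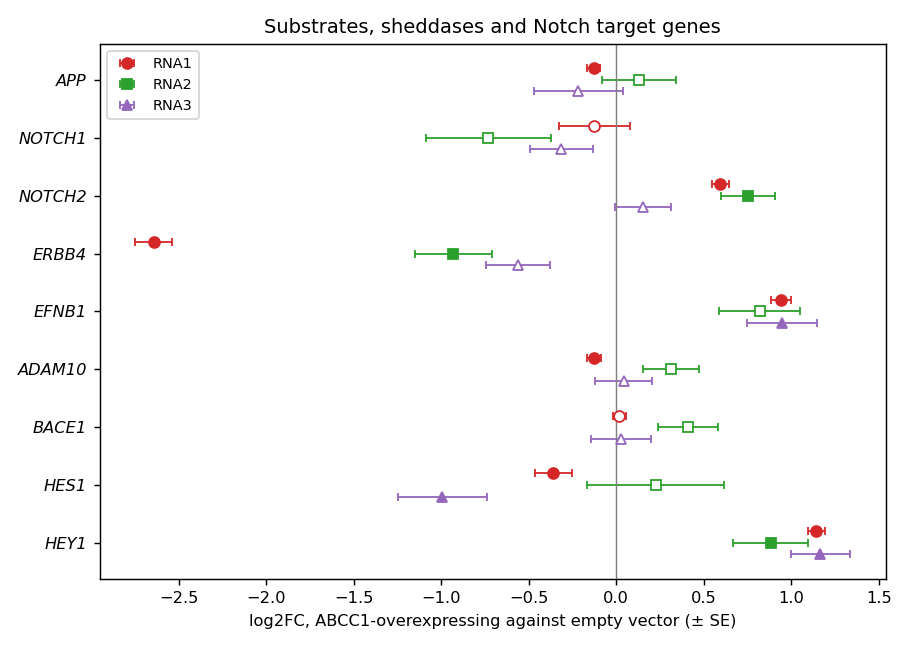
Log2FC with SE of substrate, sheddase and Notch target genes in RNA1 (circles), RNA2 (squares) and RNA3 (triangles), ABCC1-overexpressing against empty vector cells, with filled symbols where the adjusted p of edgeR is at most 0.05. HEY1 is filled and near 1 in all 3 experiments, and ERBB4 is at -2.64 in RNA1, where it lies far above the background reads, and at -0.56 in RNA3, where its Puro level per kb (1.55 CPM) is that of the background (1.57 CPM).

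The genes whose pattern was most like that of each member were found among 9983 genes by Pearson's correlation of log2 CPM over the 18 libraries, after each experiment was centred on its own mean. For PSEN2 they were ZKSCAN5 (r = 0.856), TBCC (0.839) and TBCCD1 (0.835). For NCSTN they were DAP3 (0.920), PARP4 (0.911) and OSBP (0.911). For APH1A they were CENPT (0.868), TMEM9 (0.864) and LAMP5 (0.860). For APH1B they were TTC39A (0.897), PALLD (0.839) and GALNT16 (0.822). For PSENEN they were SIVA1 (0.774), IFFO1 (0.768) and RHBDD3 (0.757), the lowest values of the members. Spearman's rho for these 15 pairs ran from 0.577 to 0.932. The libraries share line, depth and background as sources of likeness, and each value is the best of a search, so no p is given.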

How the data were processed

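RNA was sequenced in 18 libraries. The authors aligned read pairs to GRCh37 with added vector sequences and deposited raw counts per gene, made by featureCounts without regard to strand on Ensembl exons. The submitters' processing notes and the file headers name bcl2fastq 2.18, STAR 2.7.3a and Subread 2.0.0. Symbols were matched to 51996 of 57905 gene IDs. The 92 spike-in controls were left out, and the 6 vector sequences were kept in library sizes but not in counts of genes. For RNA1 the labels name 2 library kits, and the one in the study's methods was taken.

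For each experiment, edgeR 4.0.16 in R 4.3.3 was run on the counts (filterByExpr at a minimum count of 10, TMM, robust quasi-likelihood test, two-sided, Benjamini-Hochberg over all genes, called at 0.05). A joint fit had experiment, line and their interaction. CPM are TMM-normalized. CPM per kb used the exon length in the deposited tables. Replicates were taken as separate libraries, and none agreed within sampling noise. PSENEN and APH1B had the fewest counts of the members. In a test on simulated data, 100 genes were given a log2 change of 1 and 100 a log2 change of 2, all above a floor on mean counts. Changes of 1 were recovered for 97% of genes in RNA1, 65% in RNA2 and 80% in RNA3. Over both sizes, 8.8%, 3.7% and 2.7% of the calls were genes that had not been changed. Changes as small as those of the members were not simulated. Alternatives were DESeq2 1.42.0, limma-voom (limma 3.58.1), RLE size factors, other filters, a replicate block, the background as a covariate and leaving out each library.

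The members and gene lists were chosen with earlier results of these data known. From the lists, genes called in the same direction in at least 2 experiments were named (at most 5 a list), with APP, NOTCH1, BACE1 and ADAM10 always given. Other called list genes were named after their values were seen. For likeness, genes at 5 CPM or more in every library were ranked on log2(CPM + 0.5), 3 for each member.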

Additional observations from a re-analysis of the deposited data

Results flagged for a closer look

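The spike-in controls, which the comparisons leave out, had 57 counts in ABCC1 replicate 3 of RNA1, or 0.984 per 1e6 assigned counts (exact 95% Poisson interval 0.745 to 1.28, counting error only). The Puro libraries of RNA1 had 3 to 6 counts, and the other ABCC1 libraries had 6 and 7. This is the library in which PSENEN measured 15.9 CPM, against 9.96 and 9.02 CPM in the other ABCC1 libraries of RNA1. Whether the 2 belong together was not tested.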

How the results depend on the processing

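The fall of APH1B in RNA1 was called in all 12 alternatives, at a log2FC of -0.57 to -0.43 and an adjusted p of 0.000176 to 0.0247. With the replicate block it was -0.50 (adjusted p = 0.0107 by edgeR). Same-numbered libraries correlated at -0.276 to -0.018 in RNA1, -0.244 to -0.032 in RNA2 and -0.053 to 0.133 in RNA3, so the numbers were not taken as pairs, and the block changed no call of a member. It moved the genes called in RNA3 from 1021 to 1885, and the share of APH1A gave an exact permutation p of 0.340 with the block. The members called in RNA3 ranged from 0 to 1 over the fits without 1 library. The average of APH1B, not called in the main test, passed with at least 10 counts in every library (-0.43, adjusted p = 0.00489) and with DESeq2 (-0.35). Each of these called 1 member, and DESeq2 called 6300 of 46225 genes. The difference in the share of APH1A ranged from 0.267 to 0.742 points without 1 library, was 0.742 without ABCC1 replicate 1 of RNA3, and turned to -0.661 in RNA3 alone. With the background covariate, the log2FC of PSEN2, NCSTN and APH1A in RNA2 became -0.07, -0.01 and -0.05, and that of PSENEN in RNA2 went from -0.20 to -0.53. Those of NCSTN and APH1A in RNA3 became -0.34 and -0.32, and none of these was called. Line and background cannot be told apart in the fits with this covariate. PSENEN stood in place 3 or higher in 4 groups per exclusive exon base, an alternative chosen after seeing the data.

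Genes called in RNA2 (581) became 1086 with RLE size factors, 2556 with DESeq2, 1302 with limma-voom, 1402 without a filter and 9 with the background covariate. Leaving out any 1 of the 6 libraries of RNA2 moved the count by over 1.5 times, to between 8 (without Puro replicate 3) and 1359 (without ABCC1 replicate 3). Genes called in RNA3 (1021) became 1561 with DESeq2 and 1725 with at least 10 counts in every library. Leaving out any 1 of its 6 libraries gave 394 (without ABCC1 replicate 3) to 2762 (without Puro replicate 2). The causes were not tested. DESeq2 and RLE moved the split of calls: in RNA3, 741 higher and 280 lower became 1394 and 167 with DESeq2 and 966 and 199 with RLE, and for the average 4339 and 1641 became 3645 and 2655 with DESeq2 and 3094 and 2317 with RLE. Depth was not separated from the spread between libraries as a limit on APH1B and PSENEN.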
